A study of Mus musculus with 8 samples.

Results

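Histone lysine demethylases and methyltransferases were followed through a knockdown of Fto in mouse 3T3-L1 preadipocytes. The set was chosen by gene name: every Kdm gene and Setd gene with a number in its symbol, and 13 further genes of the same enzymes and of Polycomb repressive complex 2. It held 37 of the 23699 genes listed. Of these, 35 had a mean of at least 1 FPKM (fragments scaled by transcript length and library size) over the 8 libraries and were tested among 11398 such genes. Kdm4d and Kdm5d lay below that level and were not tested.

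3T3-L1 is an established mouse fibroblast line that can be turned into fat cells in culture, and here it was sampled before any such induction. All cells had been transfected while still sub-confluent, for 24 hours, with siRNA at 40 nM in total, delivered with Lipofectamine 2000. One group of 4 libraries (control siRNA) received a pool of 3 non-targeted siRNAs, and the other 4 libraries (Fto siRNA) received a pool of 3 siRNAs against Fto. Total RNA was taken 2 days after the cells became confluent. A pool was compared with a pool, so effects of single siRNAs cannot be told apart, and the labels do not say whether the replicates came from separate cultures. The p-values therefore reflect the spread among the libraries at hand, which may be technical.

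Histone lysine methyltransferases take a methyl group from S-adenosylmethionine and place it on lysines of histones, and demethylases remove it. The LSD enzymes use a flavin cofactor, and the JmjC enzymes are iron-dependent and need oxygen and 2-oxoglutarate, as the RNA demethylase FTO does. Methylated H3K4, H3K36 and H3K79 mark active or transcribed genes, and methylated H3K9 and H3K27 mark silenced ones. In preadipocytes several of them are known for keeping adipogenic genes silent before induction or for opening them afterwards.

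Fto itself lay at 54.6 to 56.2 FPKM in the control libraries and at 10.7 to 13.8 FPKM with Fto siRNA, 78.1% lower by the means (log2 fold change -2.15, limma adjusted p = 7.3e-08, exact two-sided permutation p = 0.0286, the smallest that 4 against 4 libraries allow). The libraries held 18.9 to 24.4 M fragments as worked out from the deposited intervals, and a member that was tested had a median of 1468 to 1762 fragments in a library. Of 14 preadipocyte markers 12 were tested, of which 5 rose and 4 fell; the surface markers Cd34 and Eng were below 1 FPKM. Of 10 adipocyte markers 5 were tested and 1, Lipe, fell, with a summed level of 67.9 to 101.6 FPKM in the controls against 70.6 to 81.6 FPKM with Fto siRNA. Of 9 macrophage markers 3 were tested and 1, Lyz2, fell (summed level 22.3 to 29.7 against 21.0 to 21.9 FPKM), while Emr1 and Tyrobp were at 0 in every library. None of 8 endothelial and 6 epithelial markers was tested (Krt18 and Epcam at 0), and 1 of 6 muscle markers was (Actc1, Ckm and Myod1 at 0). The part of these markers in the results below was not tested. In bulk RNA, fewer cells of a type and less RNA per cell cannot be told apart.

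Control siRNA replicate 3 and Fto siRNA replicate 4 stood apart from their groups by transcript length, with long transcripts lower and short ones higher. In control replicate 3 the 1457 tested genes with a longest coding transcript of at least 6000 bases deviated by a median log2 value of -0.13 from the mean of the other controls, and the 2718 genes of at most 2000 bases by 0.13. In Fto siRNA replicate 4 these medians were -0.08 and 0.07. Length dependence was not confined to these libraries. In the opposite direction, the medians were 0.069 and -0.079 in control replicate 1, and 0.042 and -0.056 in Fto siRNA replicate 2. The 35 tested members had a median transcript length of 4987 bases against 3138 bases over all tested genes with a length. All 13 members of at least 6000 bases were lower in control replicate 3 than the mean of the other controls, and 12 of them were the lowest of that group. In Fto siRNA replicate 4, 12 of the 13 were below the mean of the other libraries and 11 were the lowest. Leaving out control replicate 3 changed the calls of Kdm5a and Kdm5b alone among the members, and leaving out Fto siRNA replicate 4 changed none. Values of both genes with libraries left out are given below, as are those of the long members Kdm3b, Kdm5c, Nsd1, Setd1a, Setd2 and Setd5. Across the 35 tested members, Spearman's rho between transcript length and the deviation was -0.55 in control replicate 3 and -0.57 in Fto siRNA replicate 4, and between length and log2 fold change it was -0.04. These values describe genes that share libraries and have no test.

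**Figure D1:**
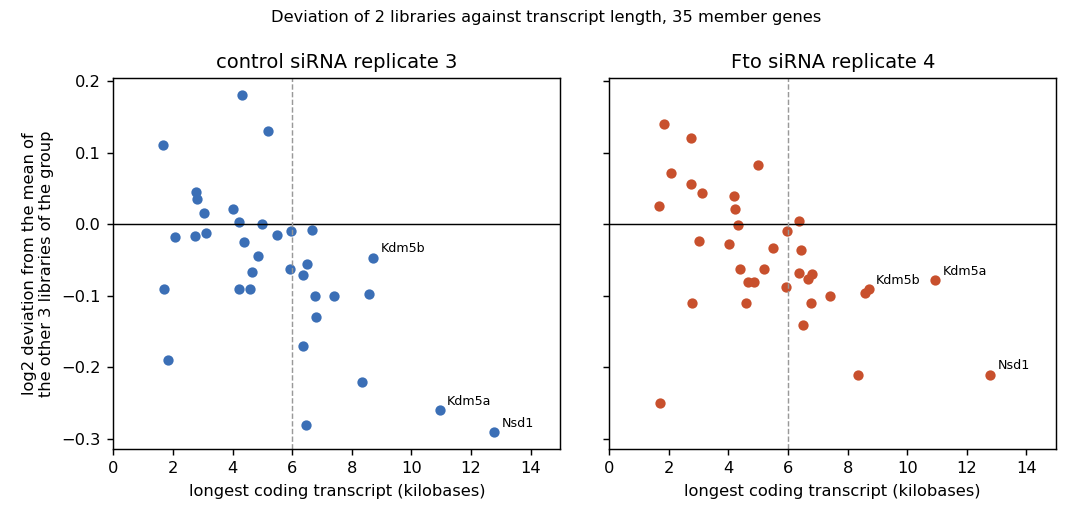
Each point is 1 of the 35 tested members, placed by the length of its longest coding transcript in kilobases (x axis) and by its log2 deviation from the mean of the other 3 libraries of its group (y axis), for control siRNA replicate 3 and Fto siRNA replicate 4. All 13 members right of the dashed line at 6000 bases lie below 0 in control replicate 3, and 12 of the 13 in Fto siRNA replicate 4.

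Of the 35 tested members 4 rose with Fto siRNA and none fell by limma at an adjusted p of 0.05, and 31 were not called. The 4 were Phf2, Setd8, Ehmt1 and Kdm5b, with differences of 8.61 to 15.4% between the group means. They made up 11.4% of the tested members, where 6.97% of all 11398 tested genes rose and 12.3% fell. At an unadjusted p under 0.05, 5 members were higher and 1 was lower. The share of all tested genes at that threshold was not worked out, here or for the lists below, so these counts have no background. Groups that did not overlap, with Fto siRNA higher, were seen for 5 of the 35 tested members, beside 9.08% of all tested genes. With Fto siRNA lower they were seen for 2 of the 35, beside 15.1% of all tested genes. The median log2 fold change of the members was 0.024, beside -0.017 over all tested genes, and their median absolute log2 fold change was 0.056 beside 0.084. The log2 fold changes of the members ran from -0.11 to 0.20, and the 95% intervals of the 31 uncalled members reached from -0.24 to 0.29. Phf2, Setd8 and Ehmt1 were also called without control replicate 3, without Fto siRNA replicate 4 and without both.

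**Figure D2:**
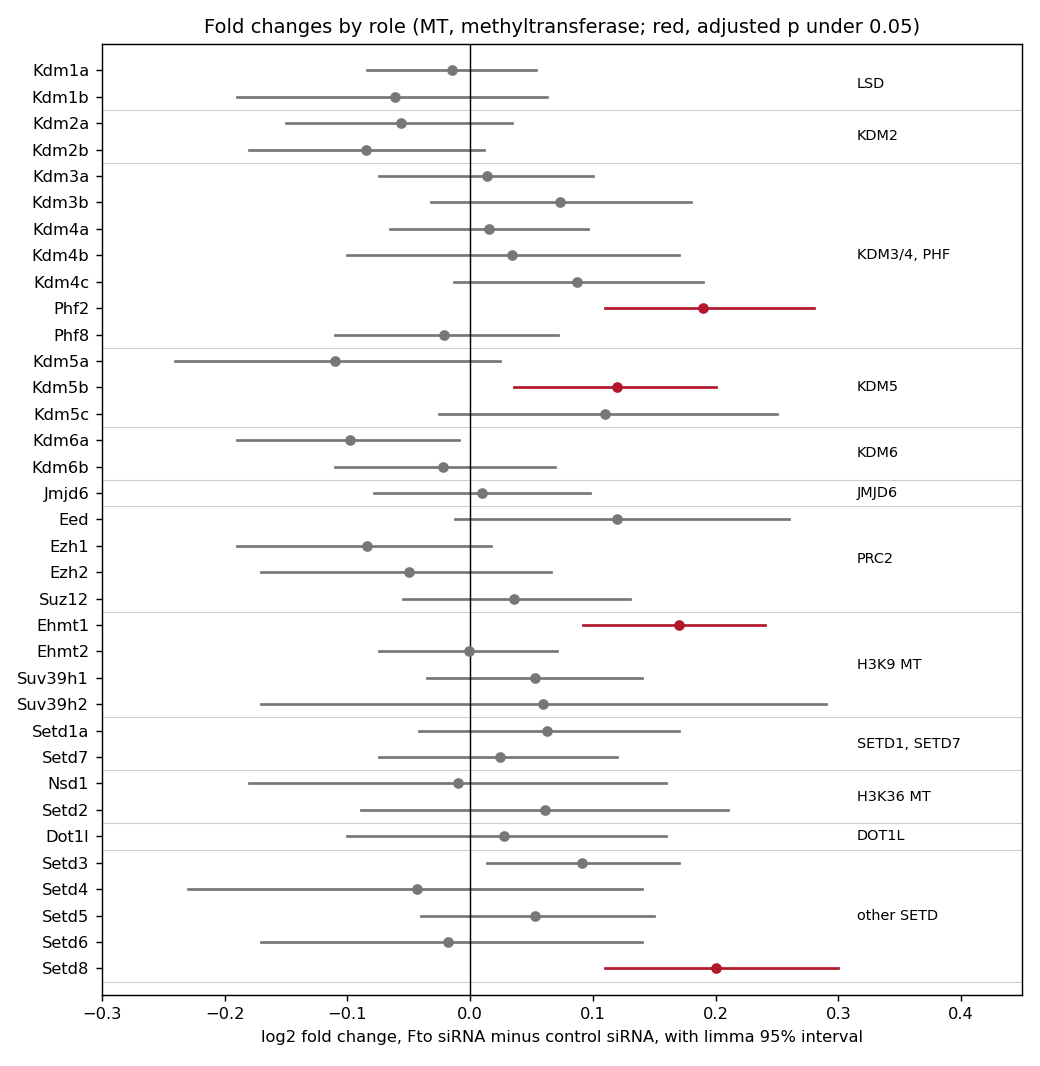
Points give each tested member's log2 fold change (Fto siRNA minus control siRNA, on the log2 scale of FPKM plus 0.5) and bars its 95% limma interval, with members grouped by role and the 4 called members in red. Phf2, Kdm5b, Ehmt1 and Setd8 lie to the right of 0 with intervals that do not reach it. The intervals are not adjusted for the number of genes. Those of the uncalled Setd3 (0.014 to 0.17) and Kdm6a (-0.19 to -0.0092) do not reach 0 either.

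Levels in FPKM, which are scaled by length and can be compared between genes only roughly, spanned a wide range. Ehmt2 had the highest level at 83.2 ± 2.12 FPKM in the controls (SD, n = 4), followed by Setd5 at 49.6 ± 2.00, Kdm2a at 40.1 ± 1.36 and Kdm3a at 38.9 ± 1.40. Kdm2a and Kdm3a did not differ beyond their spread, while Ehmt2 and Setd5 did not overlap with any neighbour in that order. Setd4, at 2.49 ± 0.237 FPKM, and Suv39h2, at 1.32 ± 0.153 FPKM, were the lowest that passed the filter. Kdm4d, a testis-rich H3K9 demethylase, averaged 0.0933 ± 0.0503 FPKM with control siRNA and 0.131 ± 0.0593 FPKM with Fto siRNA (SD, n = 4). Kdm5d, which is encoded on the Y chromosome, was listed at 0 in all 8 libraries.

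**Figure D3:**
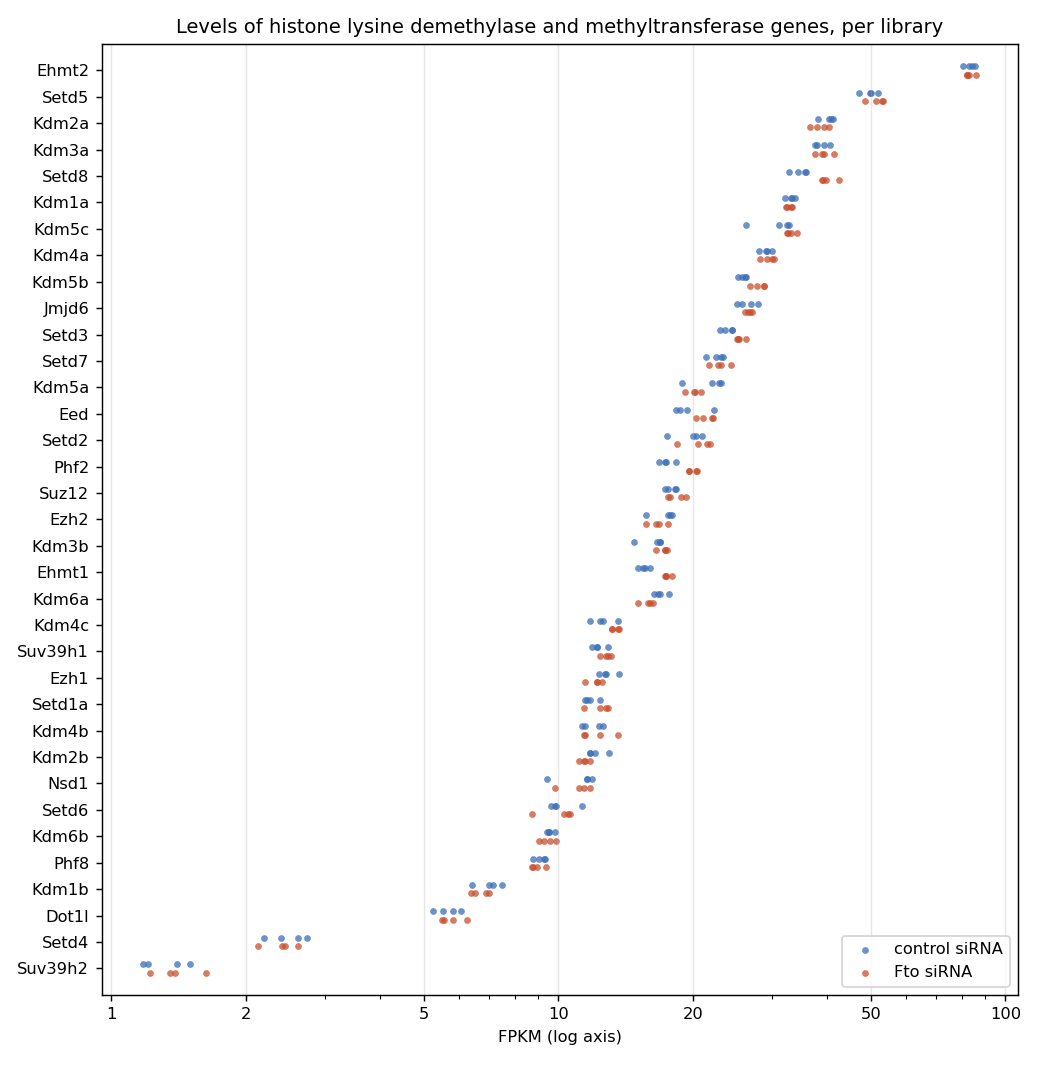
FPKM of each tested member in the 8 libraries (log axis), ordered by mean level, with control siRNA in blue and Fto siRNA in red. Ehmt2 lies alone at about 83.2 FPKM, Suv39h2 is lowest at 1.32 FPKM in the controls, and colours separate for few members, among them Phf2, Setd8 and Ehmt1.

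The H3K9 demethylases of the JmjC kind held the member with the lowest p, Phf2. Its PHD finger binds methylated H3K4 and its JmjC domain acts on H3K9, and it is known as a coactivator in adipogenesis. Phf2 (chr13:48897119-48966254, mm9) was at 17.4, 18.3, 17.3 and 16.8 FPKM in control replicates 1 to 4 and at 20.3, 20.4, 19.6 and 19.6 FPKM in Fto siRNA replicates 1 to 4. Every Fto siRNA library was above every control, and the group means were 17.4 ± 0.635 and 20 ± 0.406 FPKM (SD, n = 4; log2 fold change 0.19, SE 0.037, limma adjusted p = 0.0061). Its close relative Phf8, which acts on H3K9 and H4K20, showed no such separation: 9.33, 9.07, 8.76 and 9.28 FPKM in the controls and 8.77, 9.37, 8.75 and 8.98 FPKM with Fto siRNA. Its means were 9.11 ± 0.259 and 8.97 ± 0.290 FPKM (SD, n = 4; log2 fold change -0.021, SE 0.042, 95% interval -0.11 to 0.072, limma adjusted p = 0.771). The ratio of Phf2 to Phf8 was 1.81 to 2.02 in the control libraries and 2.18 to 2.31 in those with Fto siRNA, a description with no test.

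The KDM3 and KDM4 enzymes, which remove methyl groups from H3K9 and, for KDM4, also from H3K36, did not pass the test. Kdm3a, known for its part in fat and energy metabolism, was at 40.6, 39.3, 37.9 and 37.6 FPKM in the controls and 38.9, 39.3, 41.3 and 37.6 FPKM with Fto siRNA. Its means of 38.9 ± 1.40 and 39.3 ± 1.56 FPKM (SD, n = 4) gave a log2 fold change of 0.014 (SE 0.040, limma adjusted p = 0.841), and the groups overlapped. Kdm4a was at 29.1, 29.3, 28.1 and 30.1 FPKM in the controls and 30.3, 29.3, 30.0 and 28.2 FPKM with Fto siRNA. Its means were 29.1 ± 0.812 and 29.5 ± 0.924 FPKM (SD, n = 4; log2 fold change 0.015, SE 0.036, limma adjusted p = 0.809). These 2 genes had intervals of -0.074 to 0.10 and -0.065 to 0.096. Kdm3b, Kdm4b and Kdm4c, at control means of 16.3, 11.9 and 12.6 FPKM, had log2 fold changes of 0.073, 0.034 and 0.087 and were not called. For Kdm3b the value included control replicate 3, at 14.8 FPKM against 16.6 to 16.9 FPKM in the other controls, and without that library it was 0.030.

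The KDM5 enzymes, which remove methyl groups from trimethylated H3K4, had 1 called gene, Kdm5b, among 3 tested. Kdm5b (chr1:136456755-136529455, mm9) was at 26.3, 26.1, 25.2 and 25.8 FPKM in the controls and 27.8, 28.9, 28.9 and 26.8 FPKM with Fto siRNA. The groups did not overlap, although Fto siRNA replicate 4 lay close to the highest control. The means were 25.9 ± 0.472 and 28.1 ± 1.03 FPKM (SD, n = 4; log2 fold change 0.12, SE 0.036, limma adjusted p = 0.047). This call lay at the threshold: it was lost without any 1 library other than Fto siRNA replicate 4 (limma adjusted p 0.068 to 0.119) and in limma without a trend (0.064). Without both libraries that stood apart by length it was 0.037.

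Kdm5a was not called with all 8 libraries. It was at 23.1, 22.9, 18.9 and 22.1 FPKM in the controls and 20.1, 20.2, 20.8 and 19.2 FPKM with Fto siRNA (21.8 ± 1.94 and 20.1 ± 0.623 FPKM, SD, n = 4; log2 fold change -0.11, SE 0.060, limma adjusted p = 0.237). Control replicate 3 was the lowest of all 8 libraries, and the other 3 controls were above every Fto siRNA library. Without control replicate 3 the log2 fold change was -0.17 with an adjusted p of 0.012 by limma, and without both libraries that stood apart it was -0.15 with 0.025. Kdm5a has a transcript of 10944 bases, and it overlaps Ccdc77 (6.72 FPKM), whose reads cannot be told apart since no source states the strand. The ratio of Kdm5a to Kdm5b was 0.751 to 0.881 in the control libraries and 0.7 to 0.722 in those with Fto siRNA. Kdm5c was at 31.2, 32.8, 26.3 and 32.4 FPKM in the controls and 34.2, 32.6, 33.2 and 32.5 FPKM with Fto siRNA. Its log2 fold change of 0.11 (limma adjusted p = 0.236) rested on control replicate 3, since without that library it was 0.045 (adjusted p = 0.398).

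**Figure D4:**
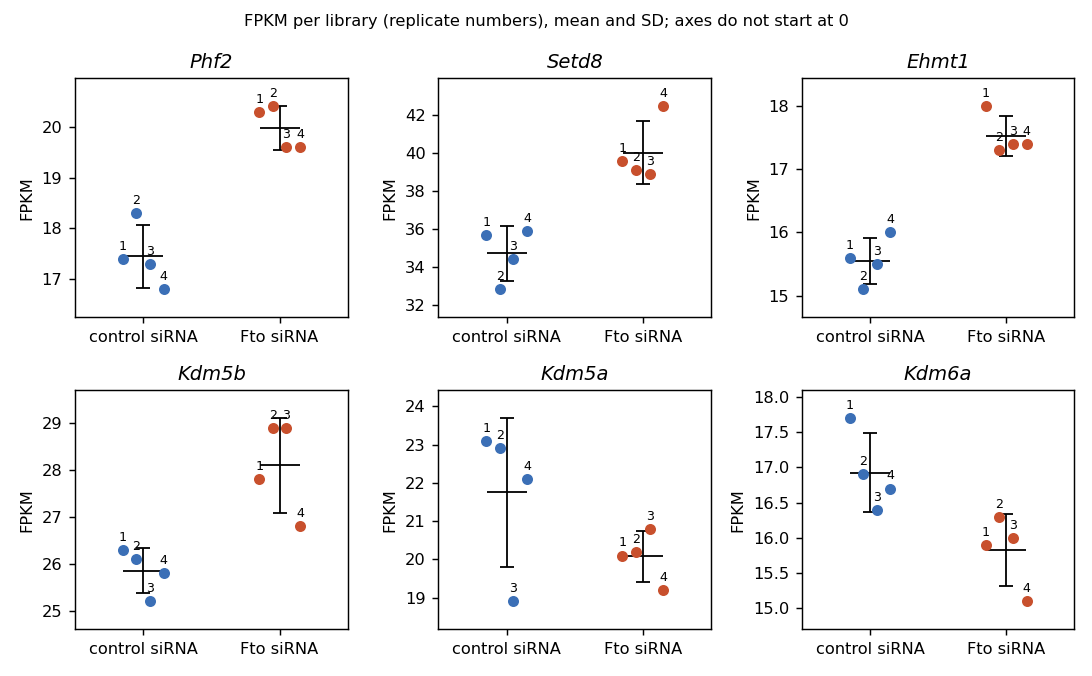
FPKM of the 4 called members and of Kdm5a and Kdm6a in each library, labelled by replicate number, with lines for the mean and bars for the SD (n = 4); axes do not start at 0. Groups separate for Phf2, Setd8, Ehmt1, Kdm5b and Kdm6a, and for Kdm5a control replicate 3 at 18.9 FPKM lies below all Fto siRNA libraries.

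The demethylases of H3K27, LSD and KDM2 kinds all had log2 fold changes below 0, although Kdm1a lay above 0 with median-ratio scaling and Kdm6b with quantile normalization, and none was called. The median over all tested genes was also below 0, at -0.017, and Kdm1a (-0.015) and Kdm6b (-0.022) lay close to it. Kdm6a, an H3K27 demethylase found in the MLL3 and MLL4 complexes, was at 17.7, 16.9, 16.4 and 16.7 FPKM in the controls and 15.9, 16.3, 16 and 15.1 FPKM with Fto siRNA. The groups did not overlap, but the difference between 16.9 ± 0.579 and 15.8 ± 0.515 FPKM (SD, n = 4; log2 fold change -0.098, SE 0.040) had a limma adjusted p of 0.117. Kdm6b, the inducible H3K27 demethylase, was at 9.45, 9.53, 9.55 and 9.85 FPKM in the controls and 9.87, 9.28, 9.56 and 9.05 FPKM with Fto siRNA. Its groups overlapped, with means of 9.59 ± 0.175 and 9.44 ± 0.353 FPKM (SD, n = 4; log2 fold change -0.022, SE 0.041, limma adjusted p = 0.757).

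Kdm1a, or LSD1, which acts on mono- and dimethylated H3K4 in CoREST complexes, was at 32.2, 33.2, 33.4 and 33.8 FPKM in the controls and 33.4, 32.3, 33.1 and 32.4 FPKM with Fto siRNA. Its means of 33.1 ± 0.665 and 32.8 ± 0.540 FPKM (SD, n = 4) gave a log2 fold change of -0.015 (SE 0.031, 95% interval -0.084 to 0.054, limma adjusted p = 0.786). Its relative Kdm1b, at 7.01 ± 0.446 FPKM in the controls (SD, n = 4), had a log2 fold change of -0.061. Kdm2a and Kdm2b, H3K36 demethylases whose CXXC domains bind unmethylated CpG islands, had control means of 40.1 and 12.2 FPKM and log2 fold changes of -0.056 and -0.085. Kdm2b was at 11.8 to 13.0 FPKM in the controls and at 11.1 to 11.8 FPKM with Fto siRNA, groups that met at 11.8 FPKM to 3 digits without overlapping (limma adjusted p = 0.203). Jmjd6, a JmjC lysyl hydroxylase that also acts on splicing factors, was at 25.1, 27, 28.0 and 25.8 FPKM in the controls and 26.6, 26.1, 26.9 and 27.1 FPKM with Fto siRNA. The Fto siRNA values lay within the range of the controls (26.5 ± 1.29 and 26.7 ± 0.438 FPKM, SD, n = 4; log2 fold change 0.010, SE 0.040, limma adjusted p = 0.889).

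Among the methyltransferases of H3K9, Ehmt1 rose and its partner Ehmt2 was not called. The proteins GLP (Ehmt1) and G9a (Ehmt2) work as a heterodimer that places mono- and dimethylation on H3K9, and EHMT1 is known for its part in the identity of brown fat cells. Ehmt1 (chr2:24646294-24775110, mm9) was at 15.6, 15.1, 15.5 and 16 FPKM in the controls and 18.0, 17.3, 17.4 and 17.4 FPKM with Fto siRNA. All 4 Fto siRNA libraries were above all controls, with means of 15.5 ± 0.358 and 17.5 ± 0.303 FPKM (SD, n = 4; log2 fold change 0.17, SE 0.034, limma adjusted p = 0.0079). Ehmt2 was at 80.4, 83.0, 84.1 and 85.4 FPKM in the controls and 86.0, 81.9, 82.8 and 81.9 FPKM with Fto siRNA. Its means were 83.2 ± 2.12 and 83.2 ± 1.96 FPKM (SD, n = 4; log2 fold change -0.0011, SE 0.033, 95% interval -0.074 to 0.071, limma adjusted p = 0.985). The transcript ratio of Ehmt1 to Ehmt2 was 0.182 to 0.194 in the control libraries and 0.209 to 0.213 in those with Fto siRNA, and these ranges did not overlap. The difference between the genes was not tested.

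Suv39h1 and Suv39h2, which place H3K9 trimethylation in heterochromatin, did not pass the test. Suv39h1 was at 11.9, 12.2, 12.2 and 12.9 FPKM in the controls and 12.4, 12.9, 12.8 and 13.1 FPKM with Fto siRNA. The groups overlapped (12.3 ± 0.436 and 12.8 ± 0.293 FPKM, SD, n = 4; log2 fold change 0.053, SE 0.039, limma adjusted p = 0.392). Suv39h2 was at 1.40, 1.18, 1.5 and 1.21 FPKM in the controls and 1.35, 1.63, 1.22 and 1.39 FPKM with Fto siRNA. Its means of 1.32 ± 0.153 and 1.40 ± 0.171 FPKM (SD, n = 4; log2 fold change 0.059, SE 0.10, limma adjusted p = 0.738) rested on 90 to 137 fragments a library, and its locus overlaps Dclre1c (3.85 FPKM).

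The core of Polycomb repressive complex 2, which methylates H3K27, had no called member. Its catalytic subunit Ezh2 was at 18.0, 15.7, 17.6 and 17.8 FPKM in the controls and 17.6, 16.5, 16.8 and 15.7 FPKM with Fto siRNA. The groups shared most of their range (17.3 ± 1.04 and 16.7 ± 0.811 FPKM, SD, n = 4; log2 fold change -0.050, SE 0.052, limma adjusted p = 0.553). Ezh1, the alternative catalytic subunit of resting cells, was at 12.8, 13.7, 12.3 and 12.7 FPKM in the controls and 12.2, 11.5, 12.5 and 12.2 FPKM with Fto siRNA. It had means of 12.9 ± 0.615 and 12.1 ± 0.451 FPKM (SD, n = 4; log2 fold change -0.084, SE 0.046, limma adjusted p = 0.233). The ratio of Ezh1 to Ezh2 overlapped between the groups, at 0.697 to 0.872 in the control libraries and 0.694 to 0.781 in those with Fto siRNA.

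The scaffold subunit Suz12 was at 18.3, 18.2, 17.6 and 17.3 FPKM in the controls and 17.6, 19.3, 18.8 and 17.8 FPKM with Fto siRNA. Its means were 17.9 ± 0.474 and 18.4 ± 0.815 FPKM (SD, n = 4; log2 fold change 0.036, SE 0.041, limma adjusted p = 0.584). Eed, the subunit that reads trimethylated H3K27, was at 22.3, 18.7, 19.4 and 18.3 FPKM in the controls and 22.1, 21.1, 20.3 and 22.2 FPKM with Fto siRNA. Control replicate 1 was the highest of all 8 libraries, and the other 3 controls were below every Fto siRNA library. The means were 19.7 ± 1.79 and 21.4 ± 0.908 FPKM (SD, n = 4; log2 fold change 0.12, SE 0.060, limma adjusted p = 0.191), and without control replicate 1 the log2 fold change was 0.18 with a limma adjusted p of 0.026. The summed FPKM of the 4 core genes was 66.1 to 71.4 in the control libraries and 67.9 to 69.5 in those with Fto siRNA.

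Methyltransferases of H3K4, H3K36 and H3K79 did not pass the test. Setd1a, the catalytic subunit of a COMPASS complex, was at 12.4, 11.8, 11.5 and 11.6 FPKM in the controls and 12.9, 12.4, 12.8 and 11.4 FPKM with Fto siRNA. The groups overlapped through Fto siRNA replicate 4 (11.8 ± 0.421 and 12.4 ± 0.654 FPKM, SD, n = 4; log2 fold change 0.063, SE 0.047, limma adjusted p = 0.396), and without that library the log2 fold change was 0.098. Setd7, which monomethylates H3K4 and other proteins, was at 23.4, 22.5, 21.4 and 23.1 FPKM in the controls and 23.1, 24.3, 22.8 and 21.7 FPKM with Fto siRNA. Its means were 22.6 ± 0.884 and 23.0 ± 1.07 FPKM (SD, n = 4; log2 fold change 0.024, SE 0.044, limma adjusted p = 0.752), and its locus overlaps 5031434O11Rik (1.52 FPKM).

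Setd2, which trimethylates H3K36 behind elongating RNA polymerase, was at 21.0, 20, 17.5 and 20.3 FPKM in the controls and 20.5, 21.5, 21.8 and 18.4 FPKM with Fto siRNA. Control replicate 3 and Fto siRNA replicate 4 were the lowest of their groups (19.7 ± 1.55 and 20.6 ± 1.55 FPKM, SD, n = 4; log2 fold change 0.061, SE 0.067, limma adjusted p = 0.576). The Setd2 value moved when either library was left out alone, to 0.0055 without control replicate 3 and to 0.11 without Fto siRNA replicate 4. Without both it was 0.057, near the 0.061 with all 8 libraries. Nsd1, an H3K36 dimethyltransferase with the longest transcript of the set, was at 11.9, 11.6, 9.43 and 11.6 FPKM in the controls and 11.1, 11.8, 11.4 and 9.84 FPKM with Fto siRNA. The same pair of libraries was lowest again (11.1 ± 1.13 and 11 ± 0.849 FPKM, SD, n = 4; log2 fold change -0.0095, SE 0.078, limma adjusted p = 0.948), and the log2 fold change of Nsd1 was -0.083 without the control library, 0.042 without the Fto siRNA library and -0.032 without both. Dot1l, the H3K79 methyltransferase, was at 6.06, 5.52, 5.24 and 5.80 FPKM in the controls and 6.24, 5.82, 5.49 and 5.55 FPKM with Fto siRNA. Its groups overlapped (5.65 ± 0.352 and 5.77 ± 0.340 FPKM, SD, n = 4; log2 fold change 0.028, SE 0.060, limma adjusted p = 0.787).

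Of the remaining SETD proteins Setd8 rose. Setd8, now named Kmt5a, is the monomethyltransferase of H4K20 and works in mitosis and DNA replication. Setd8 (chr5:124889939-124912316, mm9) was at 35.7, 32.8, 34.4 and 35.9 FPKM in the controls and 39.6, 39.1, 38.9 and 42.5 FPKM with Fto siRNA. Every Fto siRNA library was above every control, with means of 34.7 ± 1.41 and 40.0 ± 1.69 FPKM (SD, n = 4; log2 fold change 0.20, SE 0.042, limma adjusted p = 0.0082). Setd3, which methylates a histidine of actin and not a histone, was at 23.0 to 24.5 FPKM in the controls and 25.1 to 26.3 FPKM with Fto siRNA. Those groups did not overlap, but the log2 fold change of 0.091 had a limma adjusted p of 0.095; with median-ratio scaling and with quantile normalization it was 0.036 and 0.039. Setd4, Setd5 and Setd6, at control means of 2.49, 49.6 and 10.1 FPKM, had log2 fold changes of -0.043, 0.053 and -0.018 and were not called. Leaving out control replicate 3 gave 0.027 for Setd5, and leaving out Fto siRNA replicate 4 gave 0.081.

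By kind, 2 of 17 tested demethylase and JmjC members rose and none fell (median log2 fold change 0.010). Of 18 tested methyltransferase, SETD and PRC2 members 2 rose and none fell (median 0.044). Over all tested genes 6.97% rose and 12.3% fell. The calls lay in H3K9 demethylation, H3K4 demethylation, H3K9 methylation and H4K20 methylation, with 1 member each, too few to read a pattern by kind or mark. Whether a called gene changed more than its relatives in the set was not tested. Kdm5c, which was not called, had a log2 fold change of 0.11 beside 0.12 for Kdm5b. Without control replicate 3 these values were 0.045 and 0.10.

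Partners and other writers and erasers of the same marks were counted from 8 lists of 107 genes outside the set, of which 101 were tested. Of these, 8 rose (7.92%) and 10 fell (9.9%), beside 6.97% and 12.3% of all tested genes, and their median log2 fold change was 0.006. Without control replicate 2 or without Fto siRNA replicate 2, 5 rose. Among 6 tested accessory subunits of PRC2, Aebp2 rose by a log2 fold change of 0.19 (61.6 ± 2.05 to 70.1 ± 1.20 FPKM, SD, n = 4, limma adjusted p = 0.0044). Phf1, an accessory subunit that binds methylated H3K36, fell by 0.30 on that scale (31.4 ± 2.32 to 25.5 ± 1.19 FPKM, SD, n = 4, limma adjusted p = 0.0052). The PRC1 complex places ubiquitin on histone H2A, and of its 19 tested genes 1 rose and 4 fell. Those with the lowest p were Pcgf3, which fell by 0.26 on the log2 scale, Rybp, which rose by 0.21, and Pcgf5, which fell by 0.33 (limma adjusted p = 0.0046, 0.0071 and 0.0087). Pcgf3 and Pcgf5 encode alternative subunits of variant PRC1 complexes, and RYBP is a subunit that those complexes share.

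Of 10 tested partners in H3K9 methylation and HP1 proteins 2 rose, both of the SETDB family. Setdb1, which trimethylates H3K9 at retroelements, rose by a log2 fold change of 0.18 (20.9 ± 0.738 to 23.8 ± 0.978 FPKM, SD, n = 4, limma adjusted p = 0.013). Setdb2 rose by 0.24 (3.85 ± 0.326 to 4.62 ± 0.363 FPKM, SD, n = 4, limma adjusted p = 0.046), a call lost in 9 of 16 alternatives, among them those without any of control replicates 1 to 3 or any 1 Fto siRNA library (adjusted p 0.053 to 0.117). Of 11 tested LSD1 and CoREST partners 2 rose: Gse1, by 0.33 (9.61 ± 0.191 to 12.2 ± 0.512 FPKM, SD, n = 4; limma adjusted p = 6.2e-04), and the CoREST gene Rcor3, by 0.19 (limma adjusted p = 0.023). Rcor3 was not called when control replicate 2 or any of Fto siRNA replicates 1 to 3 was left out (limma adjusted p 0.059 to 0.063). None of 15 genes of the MLL and COMPASS complexes was called by limma, and at an unadjusted p under 0.05 none was higher and 1 was lower.

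Of 13 other tested lysine methyltransferases only Smyd3 fell, with a log2 fold change of -0.25 (3.24 ± 0.141 to 2.64 ± 0.156 FPKM, SD, n = 4, limma adjusted p = 0.022), a call lost in 7 of 16 alternatives, among them those that left out replicate 1 or 2 of either group (adjusted p 0.050 to 0.067). None of 11 other tested JmjC proteins was called by limma, and at an unadjusted p under 0.05, 1 was higher. That list includes Jhdm1d and Jmjd5, the older names of Kdm7a and Kdm8, which the choice by symbol did not reach. Of 17 tested genes related to S-adenosylmethionine or 2-oxoglutarate, the cosubstrates of these enzymes, 2 rose and 4 fell. Over all tested genes 6.97% rose and 12.3% fell. Not all genes of this list supply a cosubstrate, so the counts do not describe supply. Idh2, a mitochondrial enzyme that makes 2-oxoglutarate, had a log2 fold change of -0.34 and fell (212 ± 9.15 to 167 ± 7.16 FPKM, SD, n = 4, limma adjusted p = 5.8e-04). Ogdh, a subunit of the complex that consumes it, rose by 0.17, and Ahcyl1, a relative of adenosylhomocysteine hydrolase, fell by 0.16 on the log2 scale (limma adjusted p = 0.0063 and 0.011).

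Earlier results of these data had found that genes with GACCTTA or ACCTTAA in the 3′ UTR were lower with Fto siRNA, and the members were read for the same letters, on the transcript strand of GENCODE M21 (GRCm38); joined as GACCTTAA they overlap and also occur in the Fto coding sequence. The match in Fto, at position 565 from the start codon, and those in the 4 tested members that hold a word are shown because they are the letters compared, with the word in capitals.

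Fto: tgaagtgGACCTTAAgagcaga

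Kdm5b: agtttctACCTTAAgaggccct

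Kdm2a: tggctgcACCTTAAaaacagca

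Kdm5a: acattgaGACCTTActcatcaa

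Suv39h1: ggtattaACCTTAAgacctata

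Of 10772 tested genes with a searched 3′ UTR 13.2% held a word, and of the 35 tested members 11.4% did. Of all 1417 tested genes with a word 24.8% fell, against 10.7% of the 9355 without. Of the 4 members with a word 1 rose (Kdm5b) and none fell, with a median log2 fold change of -0.0016, and of the 31 without, 3 rose and none fell, with a median of 0.024. The words were picked on these data, so these shares are no separate test, the labels do not list the siRNA sequences, and a match describes letters only.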

How the data were processed

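Total RNA of 8 3T3-L1 samples (4 per group) was sequenced. The authors' values are FPKM per gene with intervals and a status, 1 table per library, per the file headers; the submitters' processing notes name TopHat2 2.0.11, Cufflinks 2.2.1 and build mm9. All members had status OK in all libraries. FPKM hold no counts, so no count test was run; fragments per library were worked out from the deposited intervals, which cover counting error only. Genes with a mean of at least 1 FPKM over the 8 libraries were compared as log2(FPKM + 0.5) with limma 3.58.1 (R 4.3.3; trend in the prior variance, two-sided, Benjamini-Hochberg over all tested genes, threshold 0.05), checked on simulated data. Fold changes are on that scale, which understates those of low genes. Deposited starts count from 0 and were raised by 1.

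The members and lists were chosen with earlier results of these data known. Named in full were the called members and a list of main enzymes, whatever their values; the other members were given by level and fold change, and from each list up to 3 called genes with the lowest p. In the PRC2 list a symbol entered in error was replaced by E130012A19Rik after the files were read. Transcript lengths and 3′ UTRs came from GENCODE M21, matched by symbol. Alternatives changed the pseudocount, filter, scaling, trend, replicate block or left out libraries; leaving out control replicate 3 and Fto siRNA replicate 4 together was chosen after seeing the data. The authors' compiled tables were not used here.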

Additional observations from a re-analysis of the deposited data

Results flagged for a closer look

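In each group of 4 libraries the highest and the lowest FPKM of the 35 tested members were compared with the others, and a value was noted when its gap to the nearest other, as a share of the group's range, passed Dixon's 95% criterion. This picked 4 of 70 groups, where chance picks about 1 in 20. Nsd1 was at 9.43 FPKM in control siRNA replicate 3 and at 11.6 to 11.9 FPKM in the other controls (0.874 of the range). Kdm3b was at 14.8 FPKM in the same library and at 16.6 to 16.9 FPKM in the others (0.862). Setd6 was at 11.3 FPKM in control siRNA replicate 4, above 9.63 to 9.86 FPKM in the others (0.861), and at 8.72 FPKM in Fto siRNA replicate 4, below 10.3 to 10.6 FPKM (0.845). Nsd1 and Kdm3b have transcripts of 12784 and 6363 bases, and in control replicate 3 long transcripts were lower as a class; Setd6, of 1707 bases, is short. The cause was not tested.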

How the results depend on the processing

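Phf2, Setd8 and Ehmt1 were called higher under all 17 alternatives (log2 fold changes of 0.18 to 0.22, 0.17 to 0.22 and 0.15 to 0.19). Kdm5b was lost in 9. The members called higher numbered 3 to 5 and those called lower 0, except for 1 (Kdm5a) without control replicate 3 and 1 without that library and Fto siRNA replicate 4; leaving out 1 library gave 0 to 1. The median of the members was 0.0041 to 0.045. In the other lists, 5 to 7 genes were higher when 1 library was left out. Over all genes, leaving out 1 library gave 550 to 941 higher and 992 to 1433 lower. Median-ratio scaling gave 1081 and 1220 (47.0% of calls higher) and quantile normalization 1086 and 1207 (47.4%), against 36.2% without them.

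Same-numbered libraries were no more alike than others (correlations of same-numbered deviations 0.074, -0.04, -0.19 and -0.09, of different-numbered ones -0.178 to 0.176). These values cannot show whether the cultures were paired, and the labels do not say. With the replicate number as a block, 628 genes were higher and 1133 lower, and of the members 3 and 0, with Kdm5b at a limma adjusted p of 0.094.

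Of 593 values of members under alternatives 545 kept direction and call, 9 lost a call, 5 gained one and 34, all uncalled, changed sign near 0. With median-ratio scaling these were Nsd1 (0.0093), Ehmt2 (0.018), Kdm1a (0.0047) and Setd6 (0.0012), and with quantile normalization Kdm6b (0.0077), Nsd1 (0.019), Setd4 (0.022), Ehmt2 (0.012), Setd6 (0.013) and Phf8 (0.007). Without control replicate 3 and Fto siRNA replicate 4, Ehmt2 was at 0.011 and Setd6 at 0.022. Leaving out 1 library gave Jmjd6 -0.015 to 0.037, Nsd1 -0.083 to 0.042, Dot1l -0.0066 to 0.059, Ehmt2 -0.018 to 0.011, Setd7 -0.0034 to 0.050, Kdm4a -0.0015 to 0.035, Kdm3a -0.010 to 0.036, Setd6 -0.044 to 0.045, Kdm4b -0.018 to 0.065 and Setd4 -0.090 to 0.0023. The cause was not tested. Depth limits Setd4 and Suv39h2, with 72 to 102 and 90 to 137 fragments a library.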
